A study of Mus musculus with 24 samples.

Results

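Oxidative phosphorylation subunit genes are the nuclear genes that encode the protein subunits of the mitochondrial respiratory chain and ATP synthase. Members were found by symbol: all symbols starting with Ndufa, Ndufb, Ndufc, Ndufs, Ndufv, Uqcr, Cox4 to Cox8 or Atp5, together with Sdha, Sdhb, Sdhc, Sdhd, Cycs and Cyc1, gave 94 of the 23991 gene symbols in the files. The 7 Ndufaf symbols, which name assembly factors, were dropped, and 4 genes whose mean over the 24 libraries was under 1 FPKM (fragments scaled to transcript length and to the mapped fragments of the library) were left out, so that 83 members remained. The members comprised 7 core and 29 supernumerary subunits of complex I, 4 subunits of complex II, 9 of complex III, cytochrome c, 15 of complex IV, 15 of complex V and 3 genes that carry such a symbol without being a structural subunit (Cox7a2l, Atp5s and Atp5sl). Just inside the limit were Cox7a1 and Cox6a2, at mean levels of 4.84 and 5.19 FPKM, and just outside it was Cox7b2, at 0.0605 FPKM. The subunits that mitochondrial DNA encodes were not analysed here.

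In the respiratory chain, complex I takes electrons from NADH and complex II takes them from succinate. Complex III passes them to cytochrome c, complex IV passes them on to oxygen, and complex V uses the proton gradient that builds up to make ATP. Core subunits carry the redox centres or the catalytic sites, and supernumerary subunits surround them and are needed for assembly and stability. Blood stem cells are known for low mitochondrial respiration, and their committed progeny for a higher one.

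The series compared mouse bone marrow cells of 4 genotypes on a C57BL/6 background in 2 sorted populations, with 3 RNA-seq libraries in each of the 8 groups. LSK cells (lineage-negative, Sca1-positive, cKit-positive) hold the stem and multipotent progenitors, and GMP are progenitors committed to granulocytes and macrophages. WT mice were wild type. ITD mice carried the Flt3-ITD allele, an internal tandem duplication that makes the receptor tyrosine kinase FLT3 active without ligand and occurs in acute myeloid leukaemia. IRE1_KO mice carried floxed Ern1 alleles and VavCre, a Cre driven across blood cells, and IRE1_KO_ITD mice carried floxed Ern1, VavCre and Flt3-ITD. Ern1 encodes IRE1, a sensor of unfolded protein in the endoplasmic reticulum that splices Xbp1 mRNA. None of the groups carried VavCre without floxed Ern1, so that in these groups the floxed alleles and the Cre cannot be told apart. The labels give no ages and do not say that the triplicates came from separate animals, so p-values measure the spread between these libraries, which may be partly technical. In bulk RNA from sorted cells, fewer cells of a type and less RNA per cell cannot be told apart.

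The sums of FPKM ranged from 510361 to 673177 per library, and 10436 to 11471 genes per library reached 1 FPKM. All 8 stem and progenitor markers fell and all 8 GMP markers rose from WT LSK to WT GMP, with GMP marker sums of 1482 to 3558 FPKM in WT LSK and 31559.5 to 32977 FPKM in WT GMP. Ern1 was not lower in the libraries labelled IRE1_KO: its level was 3.73 to 4.74 FPKM in WT LSK and 6.64 to 8.71 FPKM in IRE1_KO LSK, and 7.58 to 10.4 FPKM in WT GMP and 17.9 to 24.5 FPKM in IRE1_KO GMP. A gene-level value does not check a deletion of part of the gene, and directions for these groups rest on the labels. A 1ng tag stands in the column headers of all 3 IRE1_KO LSK libraries alone, and small RNA loci made up 3.78 to 5.27% of their summed FPKM, where the remaining LSK libraries had 9.86 to 11.2%. In each comparison that uses this group, the tag cannot be told apart from the difference compared. Xist and Y-linked genes put the ITD libraries of both populations as female, while each other group held both sexes. The libraries of those other groups thus did not all come from 1 animal, and for the ITD groups this is unknown.

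Members were among the abundant transcripts: 72 of 83 had a mean of at least 100 FPKM, and the 83 members together made up 4.22 to 5.27% of the summed FPKM of a library. Median mean levels were 122 FPKM over the complex I core subunits, 242 over the supernumerary ones, 197 over complex II, 363 over complex III, 438 over complex IV and 461 over complex V, and Cycs, the single gene for somatic cytochrome c, averaged 79.2 FPKM. The highest level was that of Ndufa4, a subunit first assigned to complex I and since found in complex IV, at a mean of 1182 FPKM and a range of 642 to 1528 FPKM. Over the 24 libraries, 80 members had an SD of log2(FPKM + 1) under 0.5, and the exceptions were the complex IV isoforms Cox4i2, at 1.53, and Cox6a2, at 1.37, and Cycs, at 0.501. Members were short genes, with a median transcript length of 1129 bases against 3118 for all genes tested.

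Promoter sequence was available for 69 of the 83 members in the RefSeq table (GRCm38.p6). Windows of 250 bases before the transcript start are shown for Cycs and Cox5a, which rose in the ITD LSK libraries and in WT GMP, and for Ndufa4, which fell in the LSK libraries with Flt3-ITD. Capitals mark matches to the motifs named next, and all 3 are written 5′ to 3′ on the strand of the gene.
Cycs: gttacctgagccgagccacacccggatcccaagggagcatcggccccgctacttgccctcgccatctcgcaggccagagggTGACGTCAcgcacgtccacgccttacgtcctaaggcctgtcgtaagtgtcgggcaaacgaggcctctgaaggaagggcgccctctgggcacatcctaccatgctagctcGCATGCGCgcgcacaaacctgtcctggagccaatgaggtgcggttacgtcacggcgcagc
Cox5a: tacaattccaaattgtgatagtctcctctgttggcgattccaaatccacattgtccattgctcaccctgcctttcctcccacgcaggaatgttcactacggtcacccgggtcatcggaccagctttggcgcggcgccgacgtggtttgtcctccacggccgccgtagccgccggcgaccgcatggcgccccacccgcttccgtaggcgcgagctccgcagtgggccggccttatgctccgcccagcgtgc
Ndufa4: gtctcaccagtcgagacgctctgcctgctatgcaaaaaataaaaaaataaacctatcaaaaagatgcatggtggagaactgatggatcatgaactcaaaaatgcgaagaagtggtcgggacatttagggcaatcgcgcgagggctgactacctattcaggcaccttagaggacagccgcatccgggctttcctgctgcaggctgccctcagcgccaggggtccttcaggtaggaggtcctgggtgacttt

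The Cycs window (chr6:50566570-50566819, minus strand) held GCATGCGC, a form of the NRF1 motif GCNTGCGC, 60 to 53 bases before the start, and the cAMP response element TGACGTCA 169 to 162 bases before it. None of the letters searched occurred in the windows of Cox5a (chr9:57520982-57521231, plus strand) and Ndufa4 (chr6:11907451-11907700, minus strand), which says only that they are not in these 250 bases. NRF1 is a regulator of nuclear genes for mitochondrial proteins. Its motif GCNTGCGC occurred on either strand in 28.0% of 75 member windows, from 20 members, against 8.30% of all 32851 windows of that length. The ETS motif CCGGAAG occurred in 16% of member windows against 6.91% of all, TGACGTCA in 6.67% against 1.55%, and the YY1 motif AAGATGGCG in 2.67% against 0.606%. The STAT motif TTCNNNGAA, named for factors that act downstream of FLT3-ITD, occurred in 8.0% of member windows and 7.02% of all, and TGACGTGG, a core of the XBP1 site, in 1.33% against 0.563%. TGACGTCA was found in the windows of Cycs, Ndufa10, Ndufa11, Ndufb2 and Uqcrfs1. TGACGTCA and TTCNNNGAA read the same on both strands, and the median GC content was 56.4% in member windows and 52.4% in all windows.

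The first question was how the subunit genes differed between LSK cells and GMP of wild-type mice. Most members were higher in WT GMP: 44 of 83 rose and 7 fell (limma on log2(FPKM + 1), adjusted p under 0.05 over all genes tested, which is what a rise, a fall or a call means throughout). Among the 12348 genes tested, 50.3% were called, 19.0% higher and 31.3% lower in GMP, and such shares of all genes are called the background from here on. The median difference of members was 0.30 on the log2 scale against -0.11 over all genes, and 68 members had a positive difference. Rises were found in every complex: 3 of 7 core and 16 of 29 supernumerary complex I subunits, 1 of 4 complex II, 6 of 9 complex III, cytochrome c, 8 of 15 complex IV and 9 of 15 complex V subunits. The 3 genes that are no structural subunit did not rise, and 2 of them fell.

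**Figure D1:**
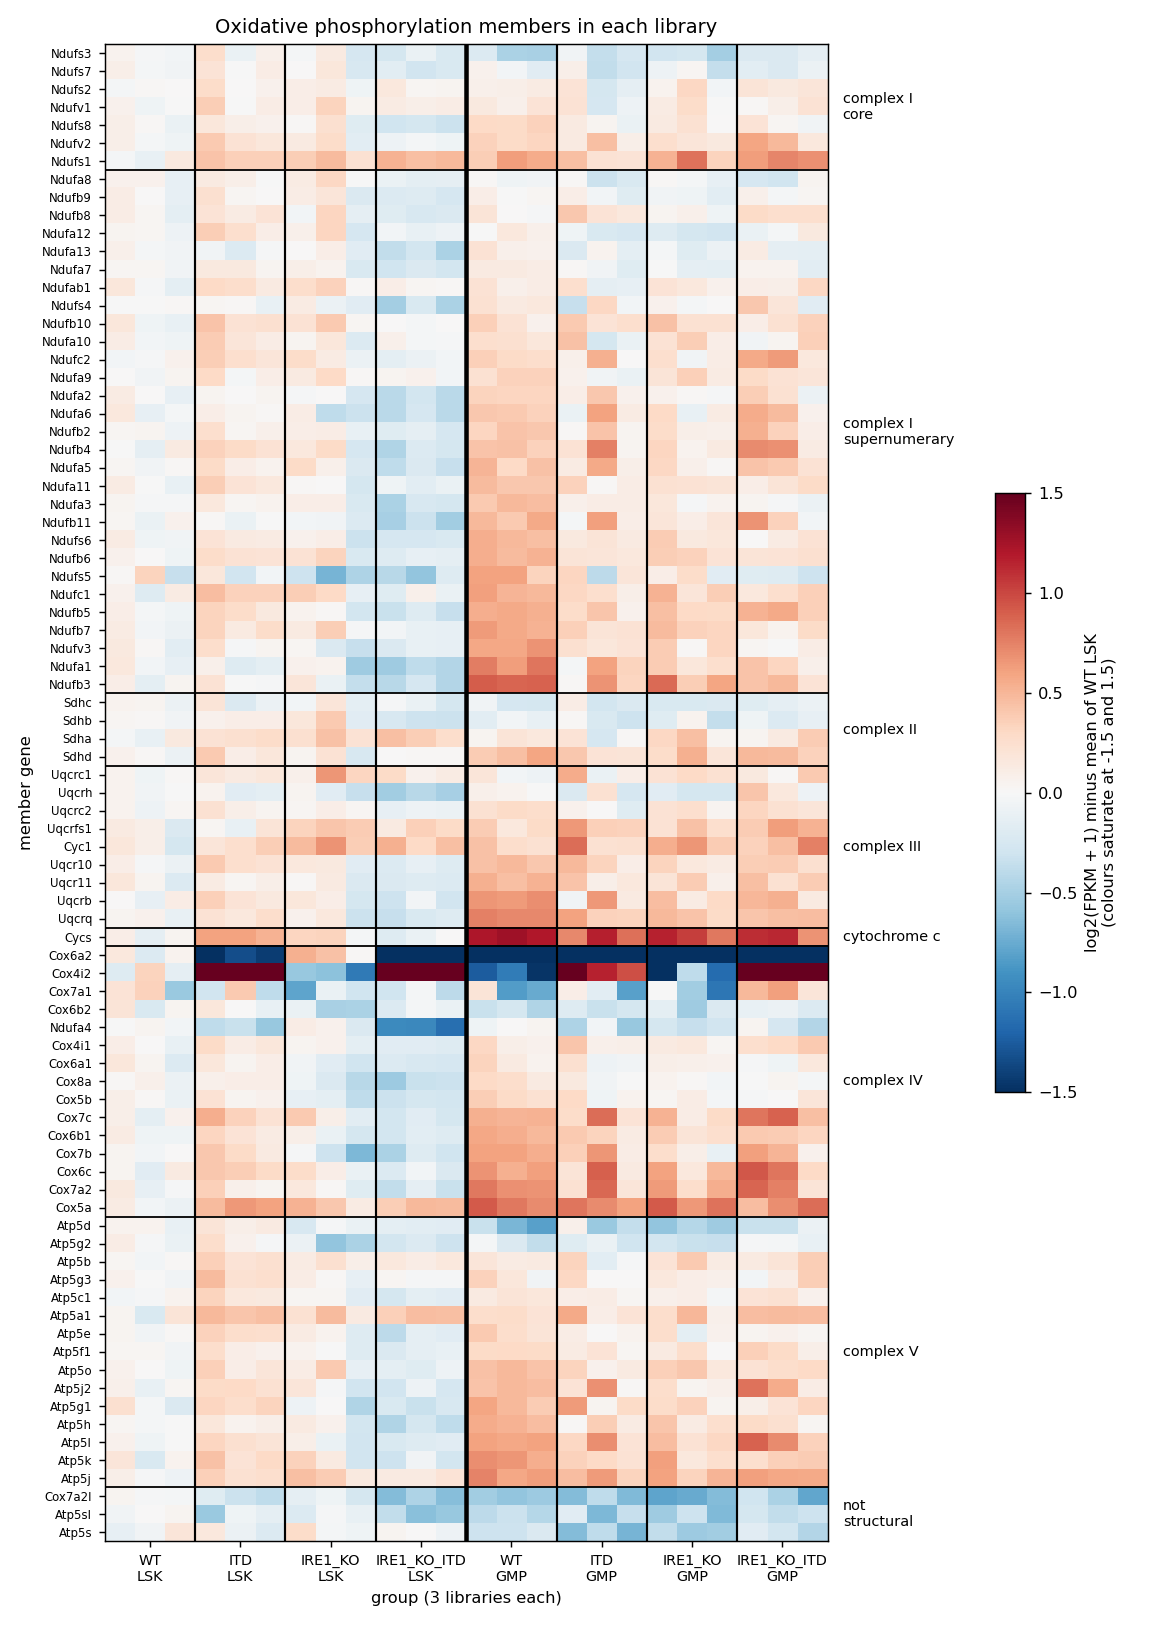
Heat map of the 83 members (rows, by complex) in the 24 libraries (columns, by group), coloured by log2(FPKM + 1) minus the mean of the 3 WT LSK libraries, with the colour scale ending at 1.5 in either direction. The WT and IRE1_KO_ITD GMP columns show mostly higher values and the IRE1_KO_ITD LSK columns mostly lower ones, and Cox4i2 is higher in each group with Flt3-ITD than in the group of the same population without it.

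Ndufs1, a core subunit that carries iron-sulfur clusters of complex I, measured 37.2, 35.1 and 42.3 FPKM in WT LSK and 49.6, 59.5 and 56.3 FPKM in WT GMP, a rise of 0.52 ± 0.11 (SE, adjusted p = 0.000504) on the log2 scale. Ndufs3, another core subunit, went the other way, from 125, 119 and 117 FPKM to 104, 86.2 and 85.6 FPKM, and fell by 0.39 ± 0.11 (SE, adjusted p = 0.00709). The 2 populations did not overlap for either gene. Among the supernumerary subunits, Ndufb3 of the membrane arm had the highest rise, from 230.2, 193 and 221 FPKM to 403, 394 and 395 FPKM (0.89 ± 0.15 SE, adjusted p = 8.8e-05). Ndufa1, which is also part of the membrane arm, was at 282, 245 and 232 FPKM in LSK and 431, 390.2 and 440.3 FPKM in GMP (0.73 ± 0.16 SE, adjusted p = 0.000681). Every GMP library lay above every LSK library for both genes.

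In complex II, Sdhd, a membrane anchor, rose from 212, 205 and 191 FPKM to 264, 278 and 306 FPKM, or by 0.48 ± 0.11 (SE, adjusted p = 0.00133). The flavoprotein Sdha, the iron-sulfur protein Sdhb and the other anchor Sdhc did not pass the test, with differences of 0.13 (adjusted p = 0.39), -0.10 (adjusted p = 0.491) and -0.19 (adjusted p = 0.17). In complex III, the small subunit Uqcrq rose most, from 419, 427 and 379 FPKM to 691, 675 and 674 FPKM (0.74 ± 0.10 SE, adjusted p = 7.21e-06), and the Rieske iron-sulfur protein Uqcrfs1 rose by 0.28 (adjusted p = 0.0408). Cycs, whose product carries electrons between complexes III and IV and also activates caspases when released, rose most of all members: its level was 52.5, 44.7 and 50.4 FPKM in LSK and 115, 119 and 115 FPKM in GMP, a difference of 1.23 ± 0.13 (SE, adjusted p = 3.78e-07). No other member had so high a log2 difference, and the 3 GMP values lay closely together.

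Within complex IV the behaviour was split. Cox5a, a subunit built onto the catalytic core early in assembly, was at 323, 288 and 277 FPKM in WT LSK and 561, 511 and 484 FPKM in WT GMP and rose by 0.81 ± 0.11 (SE, adjusted p = 5.29e-06). Cox7a2, Cox6b1, Cox5b and Cox8a rose by 0.72 (adjusted p = 0.0024), 0.54 (adjusted p = 8.33e-05), 0.30 (adjusted p = 0.0125) and 0.23 (adjusted p = 0.0322). Cox4i1, the common form of subunit 4, differed by 0.15 (adjusted p = 0.191) and Ndufa4 by -0.01 (adjusted p = 0.978), and neither passed the test. The 3 complex IV members that fell were isoforms of restricted expression, namely Cox6a2, Cox4i2 and Cox6b2. In complex V the alpha and beta subunits Atp5a1 and Atp5b did not pass the test, at 0.25 (adjusted p = 0.106) and 0.15 (adjusted p = 0.236). Atp5g1, 1 of 3 genes for the ring subunit c, rose by 0.49 (adjusted p = 0.00772). Atp5d, the delta subunit of the central stalk, was at 339, 339 and 302 FPKM in LSK and 259, 203 and 185 FPKM in GMP and fell by 0.61 ± 0.13 (SE, adjusted p = 0.000792). Of the non-structural members, Cox7a2l fell by 0.55 ± 0.10 (SE, adjusted p = 0.000179) and Atp5sl by 0.38 ± 0.13 (SE, adjusted p = 0.0203).

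Late neutrophil markers summed to 4756 to 9654 FPKM in WT LSK and 41812 to 61666 FPKM in WT GMP, where 5 of 8 rose, and their part in these differences was not tested. How many members rose depended on the scaling. The count was 21 higher and 11 lower after quantile normalization, 61 and 5 with median-ratio size factors, and 15 and 15 after rescaling to 1 sum without small RNA loci, where Cox8a and Uqcrfs1 turned to -0.067 and -0.013 and the calls of Ndufs1 and Sdhd were lost. The median of all genes moved from -0.11 to 0.02, 0.00 and -0.36 under these scalings and the median of members from 0.30 to 0.09, 0.45 and 0.01. The members stood above the median of all genes under each.

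GMP and LSK cells were then compared within the other 3 genotypes. In ITD mice 1 member rose (Uqcrfs1) and 7 fell (background 40.5%, 13.7% higher and 26.8% lower), and the member median was -0.02 against -0.16 over all genes. Both shares were below those of all genes. In IRE1_KO mice 19 rose and 8 fell (background 50.8% in all, 12.2% higher and 38.5% lower), with a median of 0.11 against -0.22. The LSK but not the GMP libraries of IRE1_KO carry the 1ng tag, so the tag and the population cannot be told apart there. In IRE1_KO_ITD mice 50 rose and none fell (background 40.7%, 14.2% higher and 26.5% lower), with a median of 0.35 against -0.13. The mean log2(FPKM + 1) over the 83 members was 7.71 ± 0.06 (SD, n = 3) in WT LSK and 7.94 ± 0.05 in WT GMP, 7.87 ± 0.06 and 7.81 ± 0.09 in ITD, 7.71 ± 0.16 and 7.79 ± 0.07 in IRE1_KO, and 7.53 ± 0.03 and 7.91 ± 0.05 in IRE1_KO_ITD. The ITD LSK group was thus the highest of the LSK groups and the IRE1_KO_ITD LSK group the lowest, while the GMP means ran from 7.79 to 7.94. Late neutrophil markers rose from LSK to GMP for 6 of 8 in ITD, 3 of 8 in IRE1_KO and 5 of 8 in IRE1_KO_ITD, with GMP sums of 2335 to 92939, 17257 to 82997 and 1415 to 14749.6 FPKM, and their part in these differences was not tested.

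**Figure D2:**
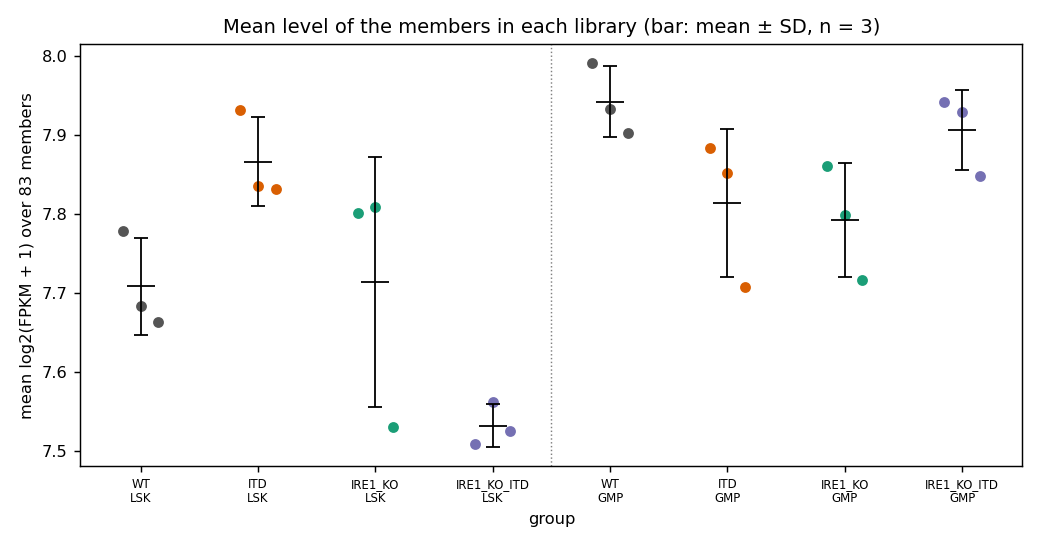
Mean log2(FPKM + 1) over the 83 members in each of the 24 libraries (points), with the mean and SD of each group of 3 (lines and bars). GMP libraries lie above LSK libraries in WT and IRE1_KO_ITD without overlap, and IRE1_KO LSK replicate 3 lies below replicates 1 and 2 of its group.

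Cycs rose from LSK to GMP in IRE1_KO (61.8, 61.9 and 47.9 FPKM to 110.1, 102 and 85.8 FPKM, 0.79 ± 0.13 SE, adjusted p = 6.77e-05) and in IRE1_KO_ITD (42.8, 45.8 and 49.2 FPKM to 107, 109 and 79.2 FPKM, 1.07 ± 0.13 SE, adjusted p = 3.27e-06). In ITD it was at 75.0, 74.9 and 70.8 FPKM in LSK and 81.8, 111 and 87.8 FPKM in GMP, and the difference of 0.33 ± 0.13 (SE, adjusted p = 0.0532) missed the threshold although the libraries did not overlap. ITD LSK libraries had the highest Cycs levels of all LSK libraries. In IRE1_KO the supernumerary subunits Ndufb3 and Ndufs5 rose by 0.69 (adjusted p = 0.000938) and 0.55 (adjusted p = 0.0201), and Cox7a2, Cox5a and Uqcrq by 0.48, 0.44 and 0.44. Its 8 falls took in all 3 non-structural members, together with Cox6a2, Atp5d, Ndufs3, Sdhb (-0.29, adjusted p = 0.0439) and the supernumerary complex I subunit Ndufa12. The Atp5d call was lost under 4 alternatives, and its difference turned to 0.0041 after GC and length correction. The falls of Sdhb, Ndufs3, Atp5sl and Atp5s were lost under 8, 7, 5 and 2 alternatives, and the rises of Ndufs5 and Cox7a2 under 4 each.

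The 50 rises in IRE1_KO_ITD covered 20 of 29 supernumerary and 2 of 7 core subunits of complex I, 1 of complex II, 6 of complex III, Cycs, 10 of complex IV and 10 of complex V. Cox7c, a small subunit of complex IV, went from 193, 208 and 195 FPKM in LSK to 410.0, 434 and 321 FPKM in GMP (0.95 ± 0.16 SE, adjusted p = 0.000102). Cox7a2, Cox6c and Atp5l, the subunit g of ATP synthase, rose by 0.89 (adjusted p = 0.000524), 0.83 (adjusted p = 0.00108) and 0.84 (adjusted p = 3.09e-05). Ndufa4 rose here as well, from 729, 724 and 642 FPKM to 1451, 1189 and 1043 FPKM (0.80 ± 0.13 SE, adjusted p = 5.6e-05), where it had differed by -0.01 in WT. The LSK values of Ndufa4 in IRE1_KO_ITD were its lowest in the series, and its GMP values in this genotype overlapped those of both ITD and WT. Cox4i1 rose by 0.49 (adjusted p = 0.000343) and Sdhd by 0.42 (adjusted p = 0.00452), calls that were lost after quantile normalization and without small RNA loci, whereas Cox5a, at 0.22 (adjusted p = 0.108), did not pass the test.

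Of the 7 members that fell from LSK to GMP in ITD, Cox4i2 fell by 1.31 ± 0.27 (SE, adjusted p = 0.000963), Atp5s by 0.53 ± 0.12 (SE, adjusted p = 0.00167), Atp5d by 0.42, the supernumerary Ndufa12 by 0.42, Ndufs3 by 0.30, Atp5g2 by 0.30 and Cox7a2l by 0.27. Uqcrfs1, the 1 member that rose, was at 100.3, 90.9 and 112 FPKM in LSK and 155, 126 and 124 FPKM in GMP. The ITD split was 9 higher and 2 lower with median-ratio size factors, 0 and 21 without small RNA loci, 13 and 4 after GC and length correction, and 2 and 13 with the replicate number as a block, and leaving out ITD GMP replicate 1 gave 4 and 17, ITD GMP replicate 3 gave 2 and 3, and ITD LSK replicate 2 or ITD GMP replicate 2 gave 1 and 5. The Uqcrfs1 call was lost under 2 alternatives, Cox7a2l under 10, Atp5g2 under 8 and Atp5d under 5. In IRE1_KO the split was 56 and 2 with median-ratio size factors, 49 and 4 after GC and length correction, 9 and 12 without small RNA loci, 8 and 10 without LSK replicate 3 and 10 and 6 without GMP replicate 1, and in IRE1_KO_ITD it was 26 and 5 after quantile normalization.

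**Figure D3:**
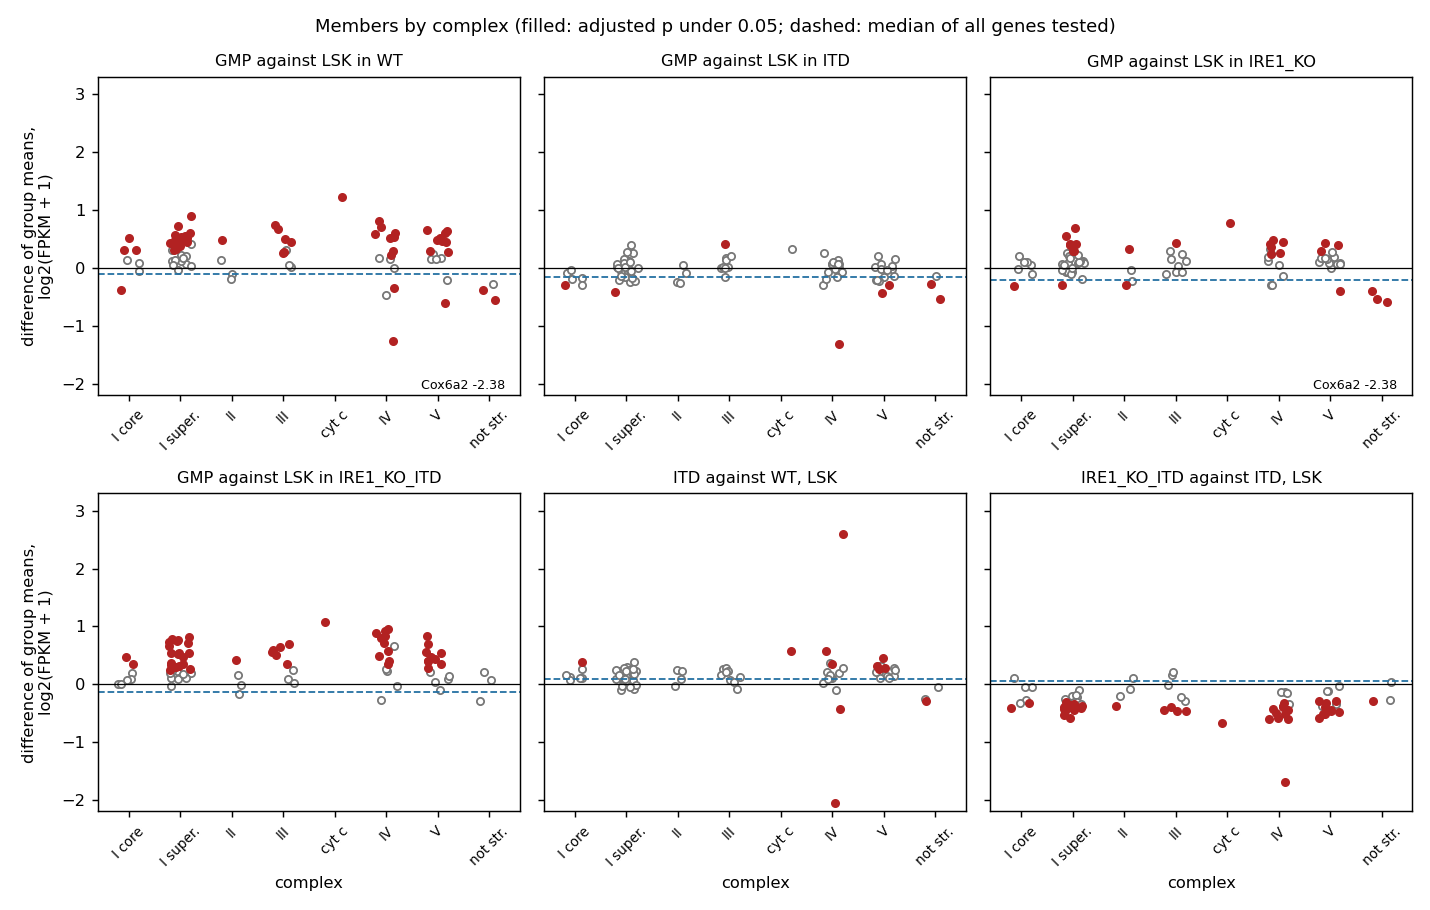
Log2 differences of the 83 members by complex in 6 comparisons, with filled points for members called by limma (adjusted p under 0.05), open points for the others and a dashed line at the median of all genes tested. In the panel of IRE1_KO_ITD against ITD LSK 48 points are called lower and none higher, and in GMP against LSK of IRE1_KO_ITD 50 are called higher and none lower.

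The difference between ITD and WT was set against itself in the 2 populations, as the ITD effect in GMP minus the ITD effect in LSK. It passed the test for 21 members, 20 of them negative and 1 positive (background 13.6%, 7.10% negative and 6.45% positive), with a median of -0.36 over the members and 0.00 over all genes. The 20 comprised 1 core and 10 supernumerary complex I subunits, 2 of complex III, Cycs, 2 of complex IV and 4 of complex V. This difference of effects was -0.90 ± 0.19 (SE, adjusted p = 0.00595) for Cycs, -0.68 ± 0.15 (SE, adjusted p = 0.00927) for Cox5a and -0.61 ± 0.15 (SE, adjusted p = 0.0142) for Ndufs1. Ndufc1, a membrane-arm subunit of complex I, gave -0.70 (adjusted p = 0.0129), Atp5k, the subunit e of ATP synthase, -0.65 (adjusted p = 0.0388), and Ndufb7 -0.57 (adjusted p = 0.00917). The positive member was Cox6a2, at 2.23 ± 0.51 (SE, adjusted p = 0.00941), and the Atp5k call was lost under 11 alternatives. The split was 2 positive and 3 negative without small RNA loci, and the total of 21 went to 11 without WT LSK replicate 2, to 14 without any 1 of ITD GMP replicate 3, ITD LSK replicate 1 or WT GMP replicates 2 and 3, and to 33 without ITD GMP replicate 1.

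In LSK cells, ITD and WT mice were compared to see how these genes differed with the mutant receptor. In this comparison 9 members rose and 3 fell (background 22.2%, 14.9% higher and 7.27% lower), and the member median was 0.16 against 0.08 over all genes. Members were thus called less often than all genes in either direction. The rises were Ndufs1 in complex I, Cycs, Cox4i2, Cox5a and Cox6c in complex IV, and Atp5a1, Atp5b, Atp5g3 and Atp5j in complex V, and the falls were Cox6a2, Ndufa4 and Cox7a2l. No supernumerary complex I, complex II or complex III member was called.

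Ndufs1 was at 51.4, 49.2 and 49.1 FPKM in ITD LSK, above all 3 WT LSK values given above, a rise of 0.38 ± 0.09 (SE, adjusted p = 0.0119). Cycs, at 75.0, 74.9 and 70.8 FPKM against 52.5, 44.7 and 50.4 FPKM in WT, rose by 0.57 ± 0.11 (SE, adjusted p = 0.00539). Cox5a stood at 409, 465 and 449 FPKM against 323, 288 and 277 FPKM, which was a rise of 0.57 ± 0.11 (SE, adjusted p = 0.00474). For these 3 genes every ITD library was above every WT library. The ATP synthase subunit alpha, Atp5a1, was at 461, 442 and 452 FPKM against 339, 281 and 376 FPKM (0.45 ± 0.11 SE, adjusted p = 0.0184). The beta subunit Atp5b rose by 0.27 (adjusted p = 0.0232), Atp5g3 by 0.32 (adjusted p = 0.0256) and Cox6c by 0.35 (adjusted p = 0.0433). Ndufa4 fell instead, from 1407, 1450.0 and 1375 FPKM in WT to 1082, 1117 and 947 FPKM in ITD, or by 0.43 ± 0.10 (SE, adjusted p = 0.0145), and Cox7a2l fell by 0.29 ± 0.08 (SE, adjusted p = 0.0298). No ITD value of Ndufa4 reached the lowest WT value. Beside these changes, all 8 late neutrophil, 7 of 8 erythroid and all 7 tested B cell markers fell, 4 of 8 stem and progenitor markers fell, and 4 of 9 monocyte, macrophage and dendritic markers rose. The late neutrophil sum was 4756 to 9654 FPKM in WT LSK and 460 to 2337 FPKM in ITD LSK, the erythroid sum 434 to 1493 and 145 to 447 FPKM, the B cell sum 134 to 240.4 and 41.3 to 72.2 FPKM and the stem and progenitor sum 563 to 662 and 324 to 391.6 FPKM. Their part in the result was not tested. The calls for Cox4i2, Cox5a, Cycs and Cox6a2 held under every alternative run, while that of Atp5a1 was lost under 3, Ndufa4 under 3, Atp5b under 8, Atp5g3 under 9 and Cox6c under 13. The split was 4 and 4 after quantile normalization, 5 and 3 with either other scaling, 20 and 3 after GC and length correction, 19 and 3 without the 1ng libraries and 4 and 1 with sex as a covariate, and the total of 12 went to 4 without WT LSK replicate 2, 6 without ITD LSK replicate 3 and 8 without ITD LSK replicate 1.

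**Figure D4:**
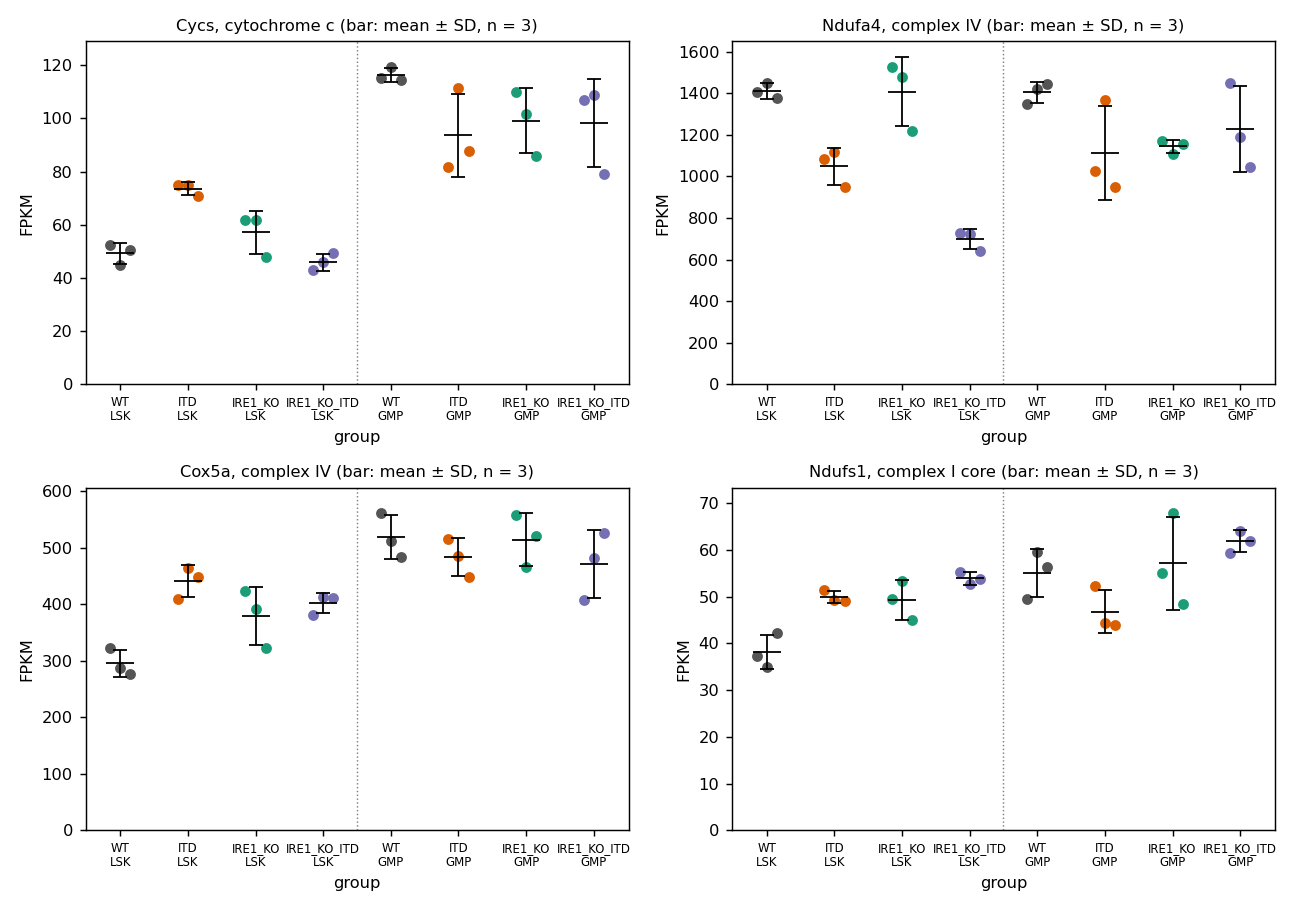
FPKM of Cycs, Ndufa4, Cox5a and Ndufs1 in each library (points) of the 8 groups, with group means and SD. In LSK cells Cycs, Cox5a and Ndufs1 are higher in ITD than in WT, Cycs and Ndufa4 are lower in IRE1_KO_ITD than in ITD, and Cox5a and Ndufs1 overlap or lie near each other in these 2 groups.

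In GMP the same allele gave 1 rise, Cox4i2, and 6 falls (background 10.7%, 7.37% higher and 3.32% lower), with a member median of -0.17 against 0.07. All 6 were supernumerary complex I subunits: Ndufv3, Ndufa3, Ndufa9, Ndufb6, Ndufs6 and Ndufb7, with differences from -0.41 to -0.32. Ndufb6, a membrane-arm subunit, was at 324, 307 and 319 FPKM in WT GMP and 254, 250.4 and 248 FPKM in ITD GMP and fell by 0.33 ± 0.07 (SE, adjusted p = 0.0132). Ndufv3, which is attached to the NADH-binding part of complex I, was at 338, 339 and 359 FPKM and 267, 253 and 259 FPKM and fell by 0.41 ± 0.09 (SE, adjusted p = 0.0218). The 2 groups did not overlap for either gene. In the same libraries 5 of 8 GMP markers and 6 of 8 erythroid markers fell, and their part was not tested. Each of the 6 calls was lost under 5 to 11 of the alternatives. The split was 1 and 1 without small RNA loci, 1 and 20 with median-ratio size factors, 1 and 0 with sex as a covariate and 1 and 3 with the replicate number as a block, and the total of 7 went to 1 without WT GMP replicate 3, 2 without WT GMP replicate 2 or ITD GMP replicate 3 and 13 without ITD GMP replicate 2.

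The floxed Ern1 genotype on the Flt3-ITD background was compared as IRE1_KO_ITD against ITD in LSK cells. Here 48 of 83 members fell and none rose, where 20.2% of all genes were called, 13.3% higher and 6.96% lower. The member median was -0.35 against 0.06 over all genes, and 78 members had a negative difference. The falls took in 2 of 7 core and 18 of 29 supernumerary complex I subunits, Sdhb of complex II, 4 of 9 subunits of complex III, Cycs, 11 of 15 of complex IV, 10 of 15 of complex V and 1 non-structural member.

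Ndufb4, a membrane-arm subunit of complex I, was at 148, 143 and 136 FPKM in ITD LSK and 85.1, 102 and 97.6 FPKM in IRE1_KO_ITD LSK and fell by 0.59 ± 0.13 (SE, adjusted p = 0.0122). Sdhb, at 257, 262 and 262 FPKM and 207, 197 and 195 FPKM, fell by 0.38 ± 0.12 (SE, adjusted p = 0.0404). Cycs dropped from 75.0, 74.9 and 70.8 FPKM to 42.8, 45.8 and 49.2 FPKM, a fall of 0.67 ± 0.11 (adjusted p = 0.0032). The IRE1_KO_ITD values of Cycs overlapped those of WT LSK, and the IRE1_KO_ITD and ITD groups did not overlap for any of the 3 genes. Ndufa4, already below WT in ITD LSK, was at 1082, 1117 and 947 FPKM in ITD and 729, 724 and 642 FPKM in IRE1_KO_ITD (-0.58 ± 0.10 SE, adjusted p = 0.00412). Cox7c was at 342, 298 and 273 FPKM and 193, 208 and 195 FPKM and fell by 0.61 ± 0.13 (SE, adjusted p = 0.0113), and Cox7b fell from 262, 242 and 218 FPKM to 143, 174 and 161 FPKM. Cox8a, Cox7a2, Cox6b1, Cox5b, Cox4i1 and Cox6a1 (0.021 after quantile normalization) fell by 0.50, 0.44, 0.42, 0.40, 0.37 and 0.33 on the log2 scale, and the ring subunit genes Atp5g1 and Atp5g3 by 0.58 and 0.32.

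Subunits that did not pass the test in this comparison were Ndufs1 (0.11, adjusted p = 0.42), Sdha (0.12, adjusted p = 0.409), Cyc1, the cytochrome c1 of complex III (0.16, adjusted p = 0.412), Uqcrfs1 (0.22, adjusted p = 0.182), Cox5a (-0.13, adjusted p = 0.414), Atp5a1 (-0.03, adjusted p = 0.893) and Atp5b (-0.12, adjusted p = 0.252). Cox5a, for instance, was at 409, 465 and 449 FPKM in ITD LSK and 381, 413 and 411 FPKM in IRE1_KO_ITD LSK.

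Leaving out 1 library lowered the total of 48 to 17 without IRE1_KO_ITD replicate 1 or 3, 31 without IRE1_KO_ITD replicate 2, 26, 24 and 30 without ITD replicates 1, 2 and 3, with no member called higher in any of these, and sex as a covariate gave 28. The split was 2 higher and 8 lower after quantile normalization, 3 and 22 without small RNA loci and 1 and 24 after GC and length correction, with member medians of -0.12, -0.20 and -0.18. The calls of Cycs and Ndufb4 held under every alternative run, those of Cox7c, Ndufa4, Atp5g1 and Cox8a were lost under quantile normalization alone, and that of Sdhb was lost under 11. Beside these falls, 4 of 8 late neutrophil markers fell, with sums of 460 to 2337 FPKM in ITD LSK and 108 to 380 FPKM in IRE1_KO_ITD LSK, and 6 of the 9 monocyte, macrophage and dendritic markers fell. Of 8 stem and progenitor markers 2 rose and 1 fell, with sums of 324 to 391.6 and 349 to 374.6 FPKM. Among 10 plasmacytoid dendritic cell genes, a list chosen after values were seen, sums were 151 to 292 FPKM in ITD LSK and 104 to 117 FPKM in IRE1_KO_ITD LSK. In the latter group 2 of these genes, Siglech and Klk1, were listed at 0. Of the 9 tested, 3 fell and most did not. The part of these cells in the result was not tested.

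Whether the ITD effect in LSK cells differed between the backgrounds with and without IRE1_KO was tested as a difference of effects. It passed the test for 5 of 83 members, all negative, a share near that of all genes (background 6.94%, 5.58% negative and 1.36% positive). The median was -0.34 over members and -0.14 over all genes. The 1ng tag of the IRE1_KO LSK libraries cannot be told apart from this difference of effects. For Cycs the ITD effect with IRE1_KO minus that without it was -0.88 ± 0.15 (SE, adjusted p = 0.0104). The others were Cox7c (-0.72, adjusted p = 0.0482), Cox6c (-0.60, adjusted p = 0.0433), Ndufa4 (-0.57, adjusted p = 0.0408) and Atp5e, the epsilon subunit of ATP synthase (-0.51, adjusted p = 0.04999). The Cycs call was lost with sex as a covariate alone, and the other 4 were lost under 17 to 19 alternatives. Without IRE1_KO LSK replicate 3, whose member sum of 22347 FPKM lay below the 27168 and 27347 FPKM of its group, 32 members passed, all negative, and without any other 1 library 1 or 2 did.

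The comparison of the allele on the IRE1_KO background, IRE1_KO_ITD against IRE1_KO in LSK, gave 1 rise, Cox4i2, and 15 falls (background 31.3%, 11.7% higher and 19.6% lower), with a median of -0.18 against -0.04. The share of members that fell was near that of all genes, and the share that rose was below it. Only the IRE1_KO libraries carry the 1ng tag here, so the tag and the allele cannot be told apart. Ndufa4 was at 1528, 1478 and 1217 FPKM in IRE1_KO LSK, and the IRE1_KO_ITD values given above differed from these by -1.01 ± 0.10 (SE, adjusted p = 6.08e-05). The other falls were Cox6a2, Cox7a2l (-0.43), Sdhb (-0.42), Atp5sl (-0.41), Ndufs4 (-0.36), Ndufa5, Ndufb11, Ndufa13, Atp5h, Uqcrh, Ndufs8, Ndufa3, Ndufa8 and Ndufa2. Beside these falls, all 8 late neutrophil markers fell, with sums of 4532 to 11448 FPKM in IRE1_KO LSK and 108 to 380 FPKM in IRE1_KO_ITD LSK. All 7 tested B cell markers fell, with sums of 184 to 222 and 30.4 to 36.6 FPKM and Pax5 listed at 0 in IRE1_KO_ITD LSK, as did 7 of 8 erythroid markers, with sums of 1003 to 2079 and 298 to 499.6 FPKM, and 5 of 8 stem and progenitor markers, with sums of 613 to 682 and 349 to 374.6 FPKM. The groups did not overlap in any of these 4 sums, and the part of these cells in the member differences was not tested. The calls for Cox4i2, Cox6a2, Ndufa4 and Cox7a2l held under every alternative run. The split was 7 and 5 after quantile normalization, 1 and 8 with median-ratio size factors, 4 and 3 without small RNA loci and 3 and 5 after GC and length correction. Leaving out IRE1_KO replicate 3 gave 1 and 39, and the totals were 5 without IRE1_KO_ITD replicate 3, 7 without IRE1_KO replicate 2, 8 without IRE1_KO_ITD replicate 1 and 9 without IRE1_KO replicate 1.

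Without Flt3-ITD, IRE1_KO against WT in LSK gave 6 rises and 1 fall (background 23.7%, 21.0% higher and 2.72% lower), with 41 members above and 42 below 0 and an all-gene median of 0.14. Rises and falls were both less frequent among members than among all genes. Cyc1 was at 159.7, 150.5 and 118 FPKM in WT and 196, 226 and 183 FPKM in IRE1_KO and rose by 0.50 ± 0.12 (SE, adjusted p = 0.0123). Uqcrfs1, at 107, 104 and 84.3 FPKM and 123, 131 and 128 FPKM, rose by 0.37 ± 0.11 (SE, adjusted p = 0.0285). The IRE1_KO libraries lay above the WT libraries for both complex III genes. Ndufs1, Cox5a, Atp5j, the coupling factor of ATP synthase, and Sdha rose by 0.36 (adjusted p = 0.0118), 0.35 (adjusted p = 0.0332), 0.33 (adjusted p = 0.0206) and 0.30 (adjusted p = 0.0368), and Cox4i2 fell by 0.75 ± 0.19 (SE, adjusted p = 0.0136). The Cyc1 call was lost under 3 alternatives, that of Cox4i2 under 2 and those of the other 5 under 5 to 11. The 1ng tag of all IRE1_KO LSK libraries cannot be told apart from their genotype. The split was 0 and 15 with median-ratio size factors, 2 and 8 without small RNA loci, 3 and 7 after quantile normalization and 6 and 6 after GC and length correction, and without IRE1_KO replicates 1, 2 and 3 and WT replicate 2 it was 5 and 6, 0 and 1, 8 and 0, and 2 and 1.

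In GMP no member was called for IRE1_KO against WT (background 0.533%, 0.0267% higher and 0.507% lower) or for IRE1_KO_ITD against ITD (background 1.83%, 0.916% in each direction). The smallest p of the former was that of Ndufa3, at -0.38 (adjusted p = 0.0757), with Ndufv3, Ndufa1, Uqcrq and Ndufa12 at -0.37, -0.47, -0.34 and -0.32, and of the latter that of Uqcrc2, at 0.28 (adjusted p = 0.128), with Ndufs1 at 0.40 (adjusted p = 0.137). The ITD effect with IRE1_KO minus that without it in GMP was called for no member and for 0% of all genes. For IRE1_KO_ITD against IRE1_KO in GMP, Cox4i2 rose and Cox6a2 fell, the latter call being lost under 7 alternatives (background 13%, 8.47% higher and 4.50% lower). Median-ratio size factors gave 2 lower members for IRE1_KO against WT in GMP, and GC and length correction gave 1.

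**Figure D5:**
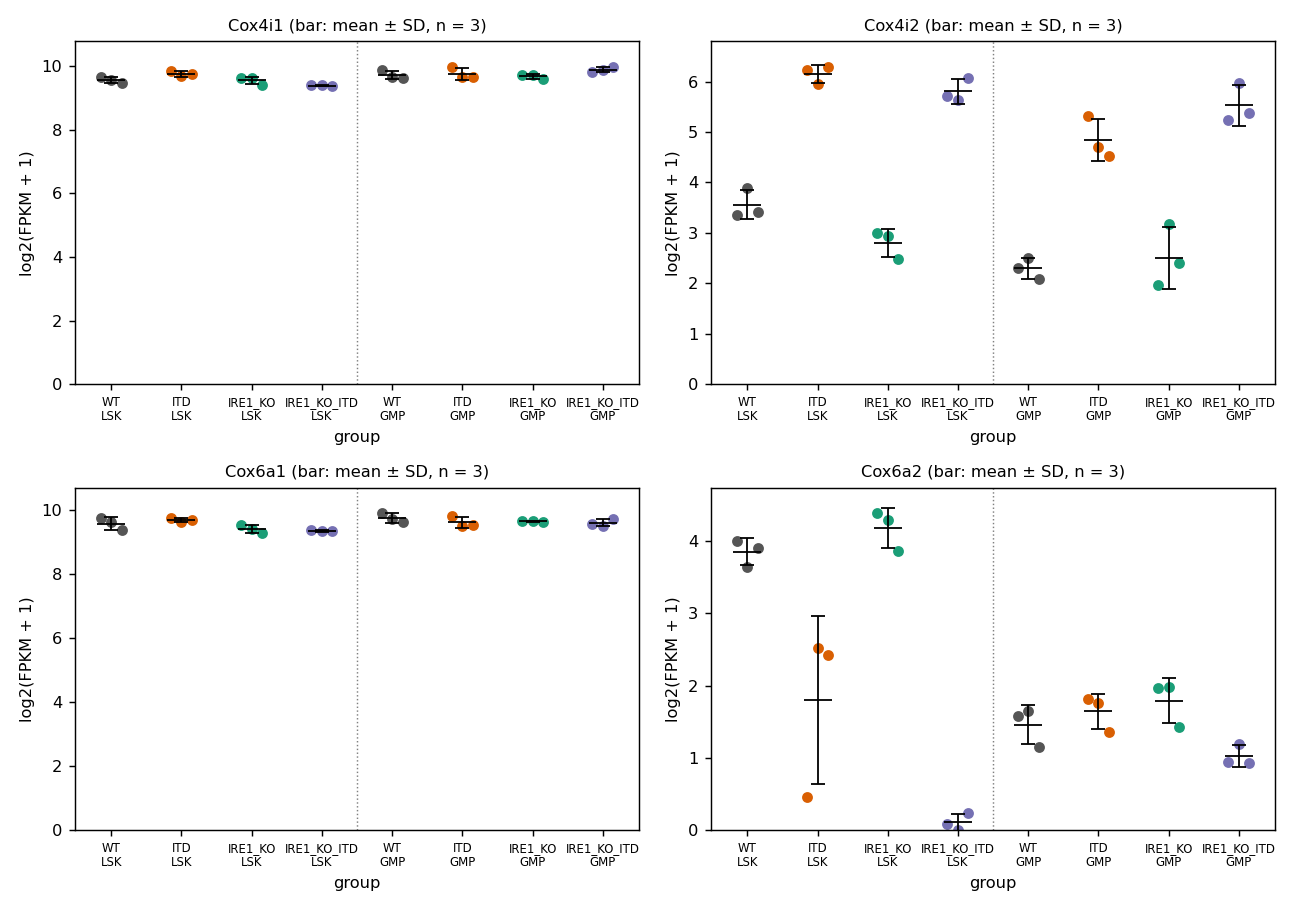
Levels of Cox4i1, Cox4i2, Cox6a1 and Cox6a2 in each library (points, log2 axis) of the 8 groups, with group means. Cox4i2 is higher in each group with Flt3-ITD and Cox6a2 is near 0 in IRE1_KO_ITD LSK, while Cox4i1 lies between 668 and 1012 FPKM in all 24 libraries.

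In each genotype comparison of LSK cells, the member with the largest log2 difference was an isoform of complex IV, either Cox4i2 or Cox6a2. Cox4i2 encodes the alternative form of subunit 4, known for its induction by low oxygen (GRCm38.p6 chr2:152753916-152765039, plus strand). Its LSK level was 9.29, 13.8 and 9.68 FPKM in WT, 73.6, 60.6 and 77.4 FPKM in ITD, 6.94, 6.68 and 4.62 FPKM in IRE1_KO and 51.2, 48.4 and 66.4 FPKM in IRE1_KO_ITD. In GMP it was 3.95, 4.68 and 3.25 FPKM, 38.6, 25.2 and 21.9 FPKM, 2.89, 8.02 and 4.28 FPKM and 36.5, 62.1 and 40.2 FPKM in the same order of genotypes. In both populations every library with Flt3-ITD lay above every library without it. The rise with ITD over WT was 2.60 ± 0.19 (SE, adjusted p = 5.16e-05) in LSK and 2.55 ± 0.32 (SE, adjusted p = 0.00124) in GMP, and the difference of these effects was -0.05 ± 0.38 (SE, adjusted p = 0.944). Over IRE1_KO, IRE1_KO_ITD was higher by 2.996 ± 0.19 (SE, adjusted p = 6.33e-06) in LSK and 3.01 ± 0.32 (SE, adjusted p = 0.000416) in GMP, and between IRE1_KO_ITD and ITD in LSK the difference was -0.35 (adjusted p = 0.215). Cox4i2 made up 0.344 to 9.04% of the summed FPKM of Cox4i1 and Cox4i2 in a library, so that Cox4i1 was the main form in all 24. The neighbouring gene Bcl2l1 lies on the opposite strand and its RefSeq span overlaps that of Cox4i2 by 6308 bases. In GENCODE these genes do not overlap, as Cox4i2 ends at 152765037 and Bcl2l1 starts at 152780668. The exon overlap of 0 bases there says nothing about exons within the RefSeq overlap. Bcl2l1 differed by 0.61 between ITD and WT in LSK (adjusted p = 0.00933) and by 0.07 in GMP (adjusted p = 0.765).

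Cox6a2 is the heart and muscle form of subunit 6A (chr7:128205435-128206366, minus strand). In LSK it was at 15.04, 11.5 and 13.9 FPKM in WT, 0.380, 4.74 and 4.35 FPKM in ITD, 19.9, 18.5 and 13.5 FPKM in IRE1_KO and 0.0660, 0 and 0.182 FPKM in IRE1_KO_ITD. In GMP it was 2.001, 2.15 and 1.22 FPKM, 2.504, 2.39 and 1.56 FPKM, 2.90, 2.96 and 1.69 FPKM and 0.931, 1.29 and 0.899 FPKM in that order. WT and IRE1_KO LSK libraries were the highest, 1 ITD LSK library was near the IRE1_KO_ITD LSK level, and the GMP libraries were low in every genotype. Cox6a2 fell from WT to ITD in LSK by 2.05 ± 0.43 (SE, adjusted p = 0.00872), from ITD to IRE1_KO_ITD by 1.69 ± 0.43 (SE, adjusted p = 0.0207) and from IRE1_KO to IRE1_KO_ITD by 4.06 ± 0.43 (SE, adjusted p = 7.31e-05). From LSK to GMP it fell by 2.38 ± 0.36 (SE, adjusted p = 1.92e-05) in WT and by 2.38 ± 0.36 (SE, adjusted p = 1.85e-05) in IRE1_KO, while in IRE1_KO_ITD it was higher in GMP by 0.91 ± 0.36 (SE, adjusted p = 0.0487). The fall from ITD to IRE1_KO_ITD in LSK was lost under 8 alternatives and the rise in IRE1_KO_ITD under 12, and these values on the log2(FPKM + 1) scale understate changes at such low levels. Siglech, a plasmacytoid dendritic cell marker, was at 2.22, 1.54 and 1.77 FPKM in WT LSK, 0.0159, 3.01 and 2.34 FPKM in ITD LSK, and 0 in all 3 IRE1_KO_ITD LSK libraries. In ITD LSK 1 library had little of both Siglech and Cox6a2. Siglech was picked from a list chosen after values were seen, and the part of these cells was not tested. The exons of Cox6a2 and Itgad overlap by 70 bases on opposite strands, and Itgad did not exceed 0.437 FPKM.

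Cox6b2, the testis form of subunit 6B, made up 5.86 to 11.5% of Cox6b1 and Cox6b2, and Cox7a1, the muscle form of subunit 7A, made up 0.570 to 3.13% of Cox7a1 and Cox7a2. Atp5g1, Atp5g2 and Atp5g3, which encode the same mature protein, made up 23.3 to 34.5%, 23.8 to 32.8% and 39.4 to 47.0% of their sum. Cox8b, Cox8c and Ndufa4l2 averaged 0.0546, 0.019 and 0.0369 FPKM and were not members.

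Genes that serve the same pathway were counted from lists written from general knowledge. From WT LSK to WT GMP, 19.0% of all genes rose and 31.3% fell, with a median of -0.11. Of 46 assembly factors tested, 9 rose, a share near that of all genes, and 1 fell (median 0.14). Ndufaf3, a complex I assembly factor, was at 0.67 and the copper chaperone Cox17 at 0.61. Of 18 genes of the tricarboxylic acid cycle and pyruvate entry, 8 rose and 2 fell (median 0.26), and of 20 glycolysis genes 10 rose and 6 fell (median 0.37), with Hk3 at 3.14 and Aldoc at -2.58. Of 18 genes for mitochondrial biogenesis and DNA maintenance, 2 rose and 5 fell (median -0.01): Polg, the mitochondrial DNA polymerase, was at 0.66 and Tfam, which packages mitochondrial DNA, at -0.55. Of 20 S phase and mitosis genes 11 rose and none fell.

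Between ITD and WT LSK, 14.9% of all genes rose and 7.27% fell, with a median of 0.08. The 46 assembly factors gave 6 rises, a share near that of all genes, and no fall. Tricarboxylic acid cycle genes gave 7 rises and no fall (median 0.28), with Idh3a at 0.63, citrate synthase (Cs) at 0.50 and Fh1 at 0.44. Glycolysis gave 7 rises and 1 fall and S phase genes 8 rises and no fall (median 0.37). In IRE1_KO_ITD against ITD LSK, where 48 members fell, 13.3% of all genes rose and 6.96% fell, with a median of 0.06. Of 46 assembly factors 3 rose and 5 fell (median -0.10), and of 18 tricarboxylic acid cycle genes 1 fell (Fh1, -0.27). Of 20 glycolysis genes 4 rose and 1 fell. Of 18 biogenesis genes 1 rose (Polg, 0.87), and of 20 S phase genes 2 rose (Ccna2, 0.74, and Mki67, 0.45). The assembly factors that fell included Ndufaf4 (-0.54), Cox16 (-0.50) and Uqcc2 (-0.44).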

How the data were processed

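Total RNA was isolated with TRIzol, per the labels' protocols, which name a SMART-Seq low-input kit followed by Nextera XT, whereas the series' design text names a stranded TruSeq kit. The deposited values are FPKM per gene, made by the authors with STAR and Cufflinks on mm10, per the submitters' processing notes. For versions and the gene annotation nothing is given in the sources used here. FPKM hold no counts, so no count test was run. Ratios of low values between libraries fell on whole numbers in 38.8 to 48.3% of cases (2.04 to 4.86% for shifted ratios), from which relative depths of 0.922 to 1.28 (WT LSK replicate 1 as reference) were read, and read totals are unknown. No column of values was left without a sample (0 columns).

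Values were taken as log2(FPKM + 1). Each gene that reached 1 FPKM in 3 or more libraries entered limma 3.58.1 (lmFit, eBayes with trend) in R 4.3.3, on all 24 libraries for GMP against LSK and the ITD effect between populations, and on the 12 libraries of a population for genotypes. P-values were adjusted by Benjamini-Hochberg over all genes tested, with a threshold of 0.05. Only the limma fit was tested on simulated data, with set changes larger than most of the member differences given here. Alternatives were quantile normalization, no filter, a pseudocount of 0.1, median-ratio size factors, rescaling without small RNA loci, the replicate number as a block, sex as a covariate, the compared libraries alone, each replicate left out, and, chosen after seeing the data, a correction of each library for length and GC content by loess, and a fit without the IRE1_KO LSK libraries. Replicate numbers pair no samples by the labels. In IRE1_KO_ITD, replicate 2 read as male in LSK and female in GMP, and replicate 3 as female in LSK and male in GMP. These numbers therefore do not stand for 1 animal each. Same-numbered libraries correlated with r of -0.338 to 0.236 in their deviations, over 0.1 in 6 of 36 pairs. All 3 pairs were over 0.1 only for ITD LSK and GMP, for which the blocked split is given.

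Members named are fixed catalytic subunits and isoform families, and in each comparison up to 6 called members at the top and 6 at the bottom of the log2 differences whose groups did not overlap (up to 5 by smallest p where fewer than 5 were called), and genes of the lists are up to 3 a list and direction by smallest p. Other falls or rises were named after their values were seen where a count was small. Members and lists were chosen with earlier results of these data known, and the lists were written from general knowledge. The plasmacytoid dendritic cell list was chosen after values were seen. All 83 members matched a RefSeq gene (GRCm38.p6), 3 of them by another name, and promoter windows are RefSeq's. GENCODE M21 gave length, GC content and exon overlap.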

Additional observations from a re-analysis of the deposited data

Results flagged for a closer look

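The listed results were picked out because an effect differed between groups by limma's test of the difference itself (adjusted p under 0.05). The ITD effect in GMP minus that in LSK was negative for Cycs (-0.90), Cox5a (-0.68) and Uqcrq (-0.52) and Uqcrc2 (-0.42) of complex III, and for Cox6b1 (-0.47) of complex IV. In complex I it was negative for Ndufc1 (-0.70), Ndufs1 (-0.61), Ndufb7 (-0.57), Ndufb6 (-0.56), Ndufb5 (-0.55), Ndufa11 (-0.52), Ndufv3 (-0.51), Ndufa12 (-0.49), Ndufs6 (-0.48), Ndufa9 (-0.46) and Ndufa3 (-0.43). In complex V the values were -0.65 for Atp5k, -0.51 for Atp5e, -0.48 for Atp5o and -0.45 for Atp5j. Cox6a2 was the 1 positive member, at 2.23. Of 83 members 20 were called negative, where 7.10% of all genes were called negative and 6.45% positive. In LSK cells, the ITD effect with IRE1_KO was below that without it for Cycs (-0.88), Cox7c (-0.72), Cox6c (-0.60), Ndufa4 (-0.57) and Atp5e (-0.51). These were 5 of 83 members, a share near the 6.94% of all genes called, and none of these calls held under every alternative run.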

How the results depend on the processing

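Totals of members called (of 83) that moved by over 1.5 times are given here, and the cause was not tested. For GMP against LSK in WT the total of 51 went to 32 with quantile normalization and 30 without small RNA loci. In ITD the total of 8 went to 5 with no filter, 21 without small RNA loci, 17 with GC and length correction, 16 without the 1ng libraries and 3 in a fit of only the libraries compared. In IRE1_KO 27 went to 58 with median-ratio size factors, 53 with GC and length correction and 14 with only the libraries compared, and in IRE1_KO_ITD 50 went to 31 with quantile normalization and 29 without small RNA loci. The ITD effect in GMP minus that in LSK had 7 with quantile normalization and 5 without small RNA loci. In LSK, ITD against WT gave 5 with sex as a covariate, 23 with GC and length correction and 22 without the 1ng libraries. IRE1_KO against WT gave 15 with median-ratio size factors, 4 with sex, 12 with GC and length correction and 2 with only the libraries compared. IRE1_KO_ITD against ITD gave 10 with quantile normalization, 25 without small RNA loci, 28 with sex and 25 with GC and length correction. IRE1_KO_ITD against IRE1_KO gave 8 with no filter, 9 with median-ratio size factors, 7 without small RNA loci, 8 with GC and length correction and 7 with only the libraries compared. The ITD effect with IRE1_KO minus that without it gave 1 with no filter, quantile normalization, median-ratio size factors or without small RNA loci, 0 with sex and 2 with GC and length correction. In GMP, ITD against WT gave 21 with median-ratio size factors, 2 without small RNA loci, 1 with sex and 2 with only the libraries compared. IRE1_KO against WT gave 2 with median-ratio size factors and 1 with GC and length correction, and IRE1_KO_ITD against IRE1_KO gave 1 with no filter, 1 with sex and 4 with GC and length correction.

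With each replicate left out, totals ran from 42 to 51 (WT), 5 to 21 (ITD), 16 to 28 (IRE1_KO) and 45 to 47 (IRE1_KO_ITD) for GMP against LSK, and from 11 to 33 for the difference of ITD effects between populations. In LSK they ran from 4 to 11 (ITD against WT), 1 to 11 (IRE1_KO against WT), 17 to 31 (IRE1_KO_ITD against ITD), 5 to 40 (IRE1_KO_ITD against IRE1_KO) and 1 to 32 (difference of ITD effects). In GMP they ran from 1 to 13 (ITD against WT), 0 to 0 (IRE1_KO against WT, IRE1_KO_ITD against ITD and the difference of ITD effects) and 1 to 2 (IRE1_KO_ITD against IRE1_KO). The replicate block moved GMP against LSK in ITD to 15 and ITD against WT in GMP to 4, and it moved no other total by over 1.5 times.

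Differences that reversed were, for GMP against LSK in WT without small RNA loci, Cox8a (-0.067) and Uqcrfs1 (-0.013). In IRE1_KO they were Ndufv1 (0.23) and Sdha (0.23) with median-ratio size factors, and Atp5d (0.0041) and Ndufv1 (0.33) with GC and length correction. In IRE1_KO_ITD with quantile normalization they were Atp5a1 (-0.33), Atp5b (-0.40), Cox5b (-0.036) and Cox8a (-0.00526). With quantile normalization in LSK, Atp5b (0.27) and Cox6a1 (0.021) reversed for IRE1_KO_ITD against ITD and Atp5b (0.25) for IRE1_KO_ITD against IRE1_KO, where Atp5g3 (0.19) reversed with GC and length correction. Of the other results for named members, 7336 kept direction and call, 461 lost and 188 gained a call. Read depth beyond relative depth is unknown, which limits the genes with low values.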
